A study of Rattus norvegicus with 6 samples.

Results

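The BCL2 family was followed through 10 genes in palmitate-treated rat cultures that the labels name as cardiomyocytes. The pro-survival genes were Bcl2, Bcl2l1 (which encodes BCL-XL) and Mcl1, and the pore-forming effector genes were Bax and Bak1. The BH3-only genes were Bid, Bcl2l11 (BIM), Bbc3 (PUMA), Pmaip1 (NOXA) and Bad. All 10 were picked by name from the 18077 rows of the deposited count tables, and each name had 1 row. The groups were 3 libraries labelled Ad-RNF128, an adenovirus for overexpression of the ubiquitin ligase RNF128, and 3 labelled Ad-GFP, the control adenovirus. Per the labels, both groups were primary cardiomyocytes from rats aged 1 to 3 days, kept with serum and BrdU, exposed to 500 µM palmitic acid for 24 h and collected after 48 h. The Ad-GFP libraries are tagged WT, and the treatment protocol names RNF28 in 1 place and RNF128 in another. No label ties a library to an animal or culture of its own, so the spread behind each p-value is that among these libraries and may be technical.

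BCL2 family proteins decide whether the outer mitochondrial membrane is opened, the step that releases cytochrome c and starts the caspase cascade. Pro-survival members hold the effectors BAX and BAK in check, and BH3-only proteins, which sense different kinds of stress, bind the pro-survival members or activate the effectors directly. Heart muscle cells seldom divide, and the balance between these proteins is a known determinant of their survival under lipid overload and after ischaemia. Much of this control acts on the proteins (cleavage of BID, phosphorylation of BAD, degradation of MCL1), which RNA counts do not show.

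Rnf128 itself was barely read, with 1, 3 and 1 counts in the libraries labelled Ad-RNF128 and 0, 2 and 1 counts in those labelled Ad-GFP, so the counts of the rat gene do not bear out the label. Rnf157, another RING-type ligase gene, was at 1923, 2553 and 2090 CPM (counts per 1000000 counts of a library) with Ad-RNF128, against 22.3, 39.6 and 40.4 CPM with Ad-GFP. Every direction below is for the libraries labelled Ad-RNF128 and rests on that label. Totals ran from 16352843 to 21708973 counts. Ad-GFP replicate 1 stood apart, with Spearman correlations of 0.776 to 0.818 with the others and 14.6% of its counts on ribosomal protein genes, against 3.51% to 5.44% elsewhere. It is therefore shown separately, and the members' results are given with and without it. Of the cardiomyocyte markers, the sarcomere genes Myh6 and Myh7 did not exceed 16.0 CPM in any library and Myl7 stayed under 1 CPM, whereas Tnnt2 was at 34.0 to 57.4 CPM with Ad-RNF128 and at 13.3, 342 and 350.4 CPM with Ad-GFP. In Ad-RNF128 replicate 3 8 of the 11 markers in the tables were under 1 CPM. Of the fibroblast markers, Col1a1 was at 3659 to 4016 CPM with Ad-RNF128 and 1100, 17690 and 18266 CPM with Ad-GFP, whereas Dcn did not exceed 1.22 CPM and Pdgfra 2.86 CPM. Thy1 was at 287 to 305 CPM with Ad-RNF128 and 224 to 286 CPM with Ad-GFP. Of the skeletal muscle markers, Myod1 was at 25.3 to 32.7 CPM with Ad-RNF128 and 50.5 to 63.3 CPM with Ad-GFP. It lay above Myh6 and Myh7 in every library. Myog was at 4.88 to 7.43 CPM with Ad-RNF128 and 3.85, 33.0 and 35.4 CPM with Ad-GFP, whereas Myh3 did not exceed 4.15 CPM. Of the smooth muscle markers, Acta2 was at 3427 to 3899 CPM with Ad-RNF128 and 2590, 4045 and 4491 CPM with Ad-GFP. Myh11 was at 27.0 to 28.1 CPM with Ad-RNF128 and 0.795, 7.42 and 9.09 CPM with Ad-GFP. Tagln was at 1308 to 1417 CPM with Ad-RNF128 and 1917, 1004 and 1116 CPM with Ad-GFP. Cnn1 was at 217 to 247 CPM with Ad-RNF128 and 184 to 210 CPM with Ad-GFP. Against Ad-GFP replicates 2 and 3 Acta2 thus lay lower, and Myh11, Tagln and Cnn1 higher, without overlap. The summed cardiomyocyte markers were at 74.6 to 141 CPM with Ad-RNF128 and at 172 to 411 CPM with Ad-GFP, where Tnnt2 made up most of the sum in replicates 2 and 3. Nkx2-5 and Gata4 ran the other way against those 2 replicates, at 17.3 to 18.2 and 21.0 to 21.8 CPM with Ad-RNF128, against 13.7 to 13.9 and 12.1 to 13.0 CPM, and Nkx2-5 was at 81.9 CPM in Ad-GFP replicate 1. The summed fibroblast markers were at 10538 to 11449 CPM with Ad-RNF128 and 3242 to 40047 CPM with Ad-GFP, and the summed cycling-cell markers at 492 to 529 CPM with Ad-RNF128 and 21.6 to 813 CPM with Ad-GFP. These sums differed between the groups or in Ad-GFP replicate 1, their part in the results below was not tested, and in such bulk RNA fewer cells of a type and less RNA per cell cannot be told apart.

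Without Ad-GFP replicate 1, 3 of the 10 genes rose with Ad-RNF128 (Bcl2l1, Mcl1 and Bid), 2 fell (Bcl2l11 and Bak1), and Bcl2, Bax, Bbc3, Pmaip1 and Bad did not pass the test. A gene passed at an adjusted p under 0.05 in edgeR's quasi-likelihood test, adjusted by Benjamini-Hochberg over all genes tested. Of 13173 genes tested in this comparison, 56.9% passed, 28.9% as higher and 28.0% as lower. The family's count is close to that background and sets it apart in neither direction. The sizes were modest, with absolute log2 changes of 0.04 to 0.88 and a median of 0.25, against a median of 0.33 over all genes tested. No member changed 2-fold, as 12.2% of all genes did. TMM, which corrects library totals for composition, was the scaling used. Library totals alone lifted the all-gene median from 0.01 to 0.17 on the log2 scale and gave 5 members higher and 2 lower, with 40.7% of all genes higher and 18.3% lower. Relative to the all-gene median the 5 called members stood at 0.47 for Bcl2l1, 0.36 for Mcl1, 0.58 for Bid, -0.43 for Bak1 and -0.89 for Bcl2l11 under TMM, and within 0.01 of those values with library totals alone.

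**Figure D1:**
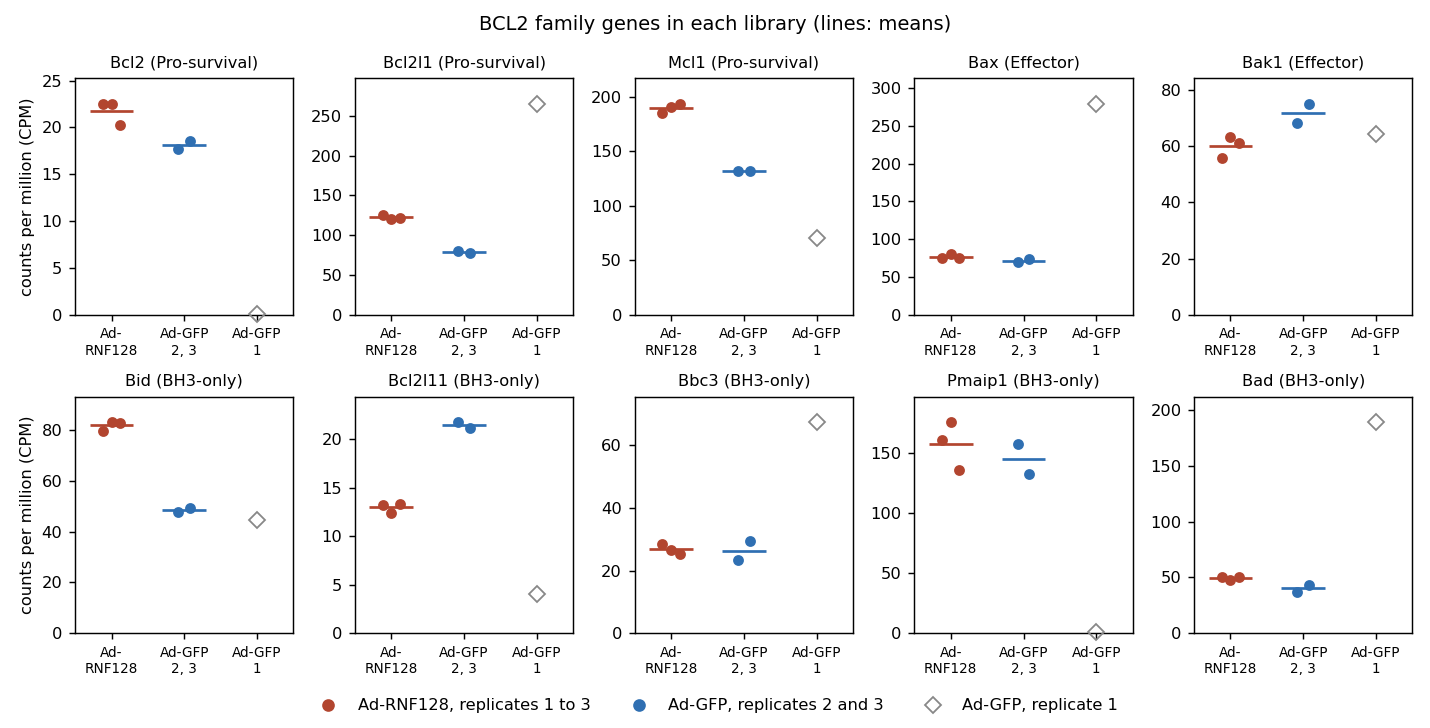
Level of each BCL2 family gene in CPM (vertical axes, from 0, each with its own scale) in the 3 libraries labelled Ad-RNF128, in Ad-GFP replicates 2 and 3, and in Ad-GFP replicate 1 (open diamond), with lines for means. Bcl2l1, Mcl1 and Bid lie higher and Bcl2l11 and Bak1 lower with Ad-RNF128 than in Ad-GFP replicates 2 and 3, and Ad-GFP replicate 1 lies outside the range of the other 5 libraries for each gene except Bak1.

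Of the pro-survival genes, Bcl2l1 and Mcl1 rose and Bcl2 did not pass. Bcl2l1 (ENSRNOG00000007946), whose main product BCL-XL sequesters BAX, BAK and several BH3-only proteins, was at 125, 121 and 122 CPM in the 3 libraries labelled Ad-RNF128, against 79.9 and 77.8 CPM in Ad-GFP replicates 2 and 3. Among these 5 libraries the groups did not overlap, and replicates lay within a few CPM of each other. The log2 change was 0.48 ± 0.06 (SE), with an edgeR adjusted p of 1.60e-05. Ad-GFP replicate 1 held 265 CPM of Bcl2l1, above every other library.

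Mcl1 (ENSRNOG00000063678) encodes a short-lived protein that restrains BAK and is needed for normal mitochondria in heart muscle of mice. It was at 185, 190.4 and 193 CPM with Ad-RNF128, against 131.6 and 131.8 CPM in Ad-GFP replicates 2 and 3. Among these 5 libraries the gap between the groups was many times the distance between replicates. The log2 change was 0.37 ± 0.06 (SE; 1.29-fold, edgeR adjusted p = 0.000182). Ad-GFP replicate 1 was lower still in CPM, at 70.6, so in CPM all 3 libraries labelled Ad-RNF128 exceeded all 3 control libraries. That order depended on the scaling, since TMM gave Ad-GFP replicate 1 a factor of 0.470. With all 6 libraries the log2 change was 0.25 with TMM and -0.0036 with median-of-ratios size factors, another scaling.

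Bcl2 (ENSRNOG00000067693), the founding member, was at 22.5, 22.5 and 20.3 CPM with Ad-RNF128 and at 17.7 and 18.5 CPM in Ad-GFP replicates 2 and 3. These CPM values did not overlap. The log2 change was 0.11 ± 0.09 (SE, 95% interval -0.08 to 0.31, edgeR adjusted p = 0.312) under TMM scaling. With library totals alone it was 0.27 and passed (adjusted p = 0.0218). Relative to the all-gene median it stood at 0.10 under both scalings. In Ad-GFP replicate 1 Bcl2 had 2 counts, or 0.122 CPM.

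The stretch of 250 bases before a start site of Bcl2l1, at chr3:161764776-161765025 of GRCr8 on the minus strand, is shown because it held the single motif match among the members. Capitals mark the 9 bases that match TGATGNAAT, letters bound by ATF4 and CHOP dimers, which begin 171 bases before the start site.
Bcl2l1: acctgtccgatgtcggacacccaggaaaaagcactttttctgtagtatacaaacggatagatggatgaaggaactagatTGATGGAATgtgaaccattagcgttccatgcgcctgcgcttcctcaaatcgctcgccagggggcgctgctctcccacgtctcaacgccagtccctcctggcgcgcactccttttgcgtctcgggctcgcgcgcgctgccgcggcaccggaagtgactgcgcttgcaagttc
Upstream stretches came from RefSeq, matched by symbol, for 8 of the 10 members, with 11 windows because Bcl2l1 has 4 start sites. On either strand 0.944% of the 33469 rat windows of that length held TGATGNAAT, and 3.41% held the core of the interferon-stimulated response element (GAAA, any 2 bases, GAAA), which none of the 11 member windows held. No member window held both motifs. Ddit3, which encodes CHOP, was at 155, 162 and 142 CPM with Ad-RNF128, against 31.9 and 26.7 CPM in Ad-GFP replicates 2 and 3 (log2 change 2.24 ± 0.09 (SE), edgeR adjusted p = 1.86e-11). In Ad-GFP replicate 1 Ddit3 was at 143 CPM, and with all 6 libraries its log2 change was 0.07 ± 1.02 (SE, edgeR adjusted p = 0.995). A match of letters is not evidence of binding.

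Of the effector genes Bak1 fell and Bax did not pass the test. Bak1 (ENSRNOG00000000485) encodes the effector that sits in the outer mitochondrial membrane and was at 55.9, 63.4 and 61.0 CPM with Ad-RNF128, against 68.4 and 75.1 CPM in Ad-GFP replicates 2 and 3. All 3 libraries labelled Ad-RNF128 lay below both, and also below the 64.5 CPM of Ad-GFP replicate 1. The log2 change without that replicate was -0.41 ± 0.08 (SE; 0.753-fold, edgeR adjusted p = 0.000435).

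Bax (ENSRNOG00000020876) encodes the effector that moves from the cytosol to mitochondria. It was at 75.4, 80.4 and 74.6 CPM with Ad-RNF128 and at 69.6 and 73.5 CPM in Ad-GFP replicates 2 and 3, close together in all 5 libraries. Its log2 change was -0.05 ± 0.07 (SE, 95% interval -0.20 to 0.10, edgeR adjusted p = 0.542) with TMM scaling and 0.10 with library totals alone, so its sign depended on the scaling. Ad-GFP replicate 1 held 279 CPM of Bax, above every other library.

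Among the BH3-only genes Bid rose, Bcl2l11 fell, and Bbc3, Pmaip1 and Bad did not pass. Bid (ENSRNOG00000012439) links death receptors to mitochondria once caspase-8 has cut its protein. It was at 79.5, 82.9 and 82.7 CPM with Ad-RNF128, against 47.6 and 49.3 CPM in Ad-GFP replicates 2 and 3. Ad-GFP replicate 1 was at 44.3 CPM, so in CPM the 3 control libraries lay together and well below the other 3. With all 6 libraries the log2 change was 0.14 with TMM scaling and -0.19 with median-of-ratios size factors, another scaling. The place of the controls thus depended on the scaling given to Ad-GFP replicate 1, whose TMM factor was 0.470. The log2 change without that replicate was 0.60 ± 0.07 (SE; 1.51-fold, edgeR adjusted p = 4.28e-06), the largest rise in the family in this comparison.

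Bcl2l11 (ENSRNOG00000016551) encodes BIM, which binds every pro-survival member and can activate BAX and BAK. It was at 13.3, 12.4 and 13.3 CPM with Ad-RNF128, against 21.8 and 21.2 CPM in Ad-GFP replicates 2 and 3. Its log2 change of -0.88 ± 0.09 (SE; 0.544-fold, edgeR adjusted p = 1.73e-06) was the largest in the family in either direction in this comparison. Ad-GFP replicate 1, at 4.10 CPM, was lower than all other libraries, so the 3 controls did not lie on 1 side of the libraries labelled Ad-RNF128. On GRCr8 the annotated Bcl2l11 gene shares bases with Acoxl, and Bcl2, Bcl2l1 and Bak1 share bases with a lncRNA or a pseudogene. No source used here says whether the counting used strand, and reads in those shared stretches cannot be assigned with certainty.

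The 250 bases before the start sites of Bid (chr4:155808320-155808569, minus strand) and Bcl2l11 (chr3:135819792-135820041, plus strand) of GRCr8 are shown as those of the genes with the largest rise and fall. Neither held either motif, and all letters are therefore in lower case.
Bid: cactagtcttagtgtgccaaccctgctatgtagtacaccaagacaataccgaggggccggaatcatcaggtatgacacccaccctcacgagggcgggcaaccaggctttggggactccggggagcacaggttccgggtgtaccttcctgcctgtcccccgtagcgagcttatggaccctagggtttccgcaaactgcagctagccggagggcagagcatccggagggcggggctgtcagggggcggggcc
Bcl2l11: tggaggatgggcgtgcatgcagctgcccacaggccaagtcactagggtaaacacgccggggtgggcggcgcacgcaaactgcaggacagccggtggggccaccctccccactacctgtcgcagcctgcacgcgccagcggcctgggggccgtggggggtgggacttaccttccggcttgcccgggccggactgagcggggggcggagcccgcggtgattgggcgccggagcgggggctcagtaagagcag
G and C made up 62.8% of the Bid stretch and 72.0% of the Bcl2l11 stretch, against a median of 51.2% over all 33469 windows, and CG dinucleotides numbered 13 and 22, against a median of 5. The Bcl2l1 stretch printed above had 57.6% and 23. Values above both medians were not particular to the genes that passed, since Pmaip1 (64.8% and 30) and Bad (52.4% and 8) had them too. The windows of the other Bcl2l1 start sites had 41.2% to 60.0% G and C, and that of Bcl2 had 33.6%.

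Of the other BH3-only genes, Pmaip1 and Bbc3 overlapped between the groups. Pmaip1 (ENSRNOG00000018770), whose product NOXA binds MCL1 in particular, was at 160.5, 176 and 135 CPM with Ad-RNF128 and at 158 and 133 CPM in Ad-GFP replicates 2 and 3, and the groups overlapped. Its log2 change was -0.04 ± 0.09 (SE, 95% interval -0.24 to 0.16, edgeR adjusted p = 0.75). Ad-GFP replicate 1 had 24 counts of Pmaip1, or 1.47 CPM, far below the other 5 libraries. Bbc3 (ENSRNOG00000062473), whose product PUMA binds every pro-survival member, was at 28.5, 26.4 and 25.2 CPM with Ad-RNF128 and at 23.3 and 29.3 CPM in Ad-GFP replicates 2 and 3, again with overlap. Its log2 change was -0.14 ± 0.10 (SE, 95% interval -0.36 to 0.09, edgeR adjusted p = 0.28). It was -0.31 without Ad-GFP replicate 2 (adjusted p = 0.017), where it passed, and 0.071 without Ad-GFP replicate 3, so single control libraries decided its call and sign. Ad-GFP replicate 1 held 67.2 CPM of Bbc3, above the rest.

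Bad (ENSRNOG00000021147), whose product binds BCL-XL unless survival signals keep it phosphorylated, was at 50.1, 47.9 and 50.4 CPM with Ad-RNF128 and at 37.3 and 43.3 CPM in Ad-GFP replicates 2 and 3. These CPM values did not overlap. The log2 change was 0.14 ± 0.08 (SE, 95% interval -0.04 to 0.31, edgeR adjusted p = 0.178), and it passed with library totals alone (0.29, adjusted p = 0.00645) and without Ad-GFP replicate 3 (0.28, adjusted p = 0.0187). Ad-GFP replicate 1 held 189 CPM of Bad.

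In CPM, 6 members lay higher and 2 lower with Ad-RNF128 without overlap against Ad-GFP replicates 2 and 3, and of all 13173 genes tested 48.7% lay higher and 23.6% lower in this way. Against all 3 control libraries Bcl2, Mcl1 and Bid lay higher without overlap and Bak1 lower. Over the 12863 genes tested in the comparison of 6 libraries those shares were 30.4% higher and 3.59% lower.

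**Figure D2:**
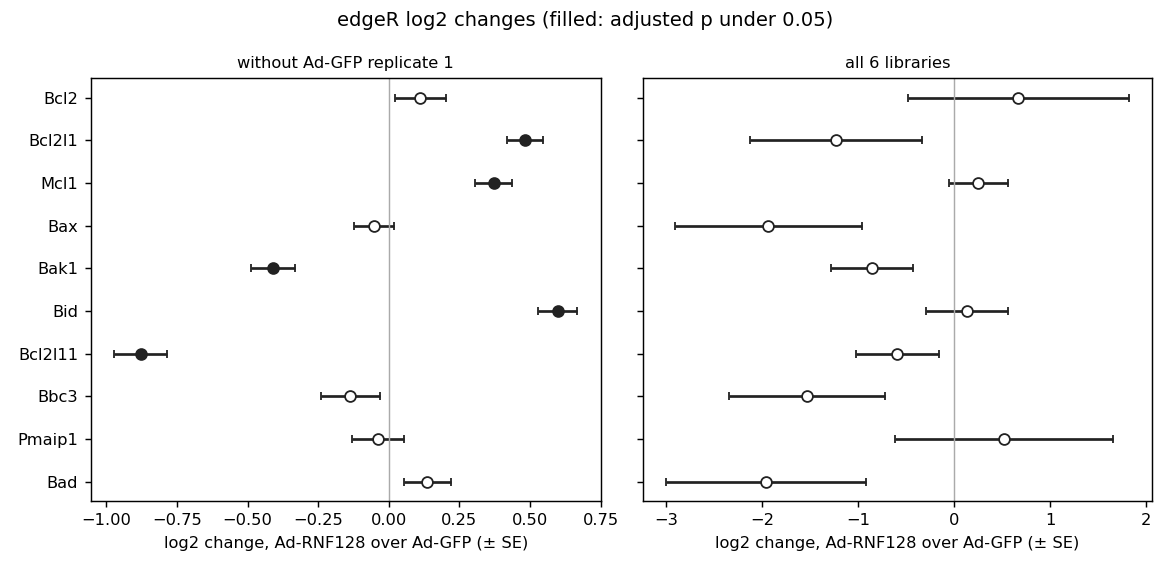
edgeR log2 change of each BCL2 family gene, Ad-RNF128 over Ad-GFP, with bars for the SE, without Ad-GFP replicate 1 (left) and with all 6 libraries (right, a wider axis); filled points passed at an adjusted p under 0.05. Without that replicate 3 genes pass as higher and 2 as lower, and with it none passes and the bars are several times as long.

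With all 6 libraries no member passed, and the family's spread between controls was far larger. Of 12863 genes tested with edgeR 0 passed (0.0%), and 742 (5.77%) had an unadjusted p under 0.05, 3.36% as higher and 2.41% as lower. DESeq2 called 386, 1.9% of genes as higher and 1.1% as lower, limma-voom called 14 (0.109%) and edgeR with library totals alone 8 (0.0622%), all higher. None of these calls was a member. At an unadjusted p under 0.05 there were 0 members in the edgeR fit with TMM and in limma-voom. There was 1 with DESeq2 (Bak1, adjusted p = 0.322) and 1 with edgeR and library totals alone (Bid, adjusted p = 0.616). The share of all genes at that unadjusted p was taken only for the edgeR fit with TMM. The member counts of the other fits thus have no background to be read against. DESeq2 gave no p for Bcl2l1, Bax, Bbc3 and Bad, so these 4 could not be called there. The log2 changes were -1.96 ± 1.04 for Bad, -1.94 ± 0.97 for Bax, -1.53 ± 0.81 for Bbc3 and -1.23 ± 0.90 for Bcl2l1 (SE, edgeR adjusted p values of 0.681 to 0.714), the 4 genes for which Ad-GFP replicate 1 lay above every other library. The sign for Bcl2l1 was thus opposite to that without this replicate. Mcl1 and Bid kept a positive sign at 0.25 ± 0.31 and 0.14 ± 0.43 (SE), and Bak1 and Bcl2l11 a negative one at -0.86 ± 0.43 and -0.59 ± 0.44 (SE). With median-of-ratios size factors the values for Mcl1 and Bid were -0.0036 and -0.19, so those signs over 6 libraries rested on the scaling. TMM gave Ad-GFP replicate 1 a factor of 0.470, against factors above 1 for the other libraries.

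Ad-GFP replicate 1 divided the family in its own way. Relative to the mean of Ad-GFP replicates 2 and 3 its CPM was 4.69 times as high for Bad, 3.90 for Bax, 3.36 for Bcl2l1 and 2.56 for Bbc3. It was 0.898 times as high for Bak1 and 0.915 for Bid. Mcl1 lay at 0.536, Bcl2l11 at 0.191, Pmaip1 at 0.0101 and Bcl2 at 0.00676. Over all 12863 genes, 24.5% were above and 66.2% below every other library in Ad-GFP replicate 1, and 4 and 5 of the 10 members were. Pro-survival and BH3-only genes were found on both sides of that split, and of the effectors Bax was above and Bak1 within the range of the rest.

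Ratios of 2 genes within a library do not depend on library scaling, and gene length cancels when 1 ratio is compared between libraries. For 5 pairs of known binding partners the ratio of the death-promoting gene's counts to the pro-survival gene's was taken, as a description with no test. Bcl2l11 over Bcl2 was 0.590, 0.550 and 0.657 with Ad-RNF128, against 1.23 and 1.14 in Ad-GFP replicates 2 and 3. It was thus about 0.503 times as high with Ad-RNF128 in the mean of log2 ratios, the largest shift of the 5 pairs against these controls. Bak1 over Mcl1 was 0.303, 0.333 and 0.315 with Ad-RNF128, against 0.520 and 0.570. Its 3 values with Ad-RNF128 lay well apart from those controls.

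Bad over Bcl2l1 was 0.401, 0.397 and 0.412 with Ad-RNF128, against 0.467 and 0.556 in Ad-GFP replicates 2 and 3. Bax over Bcl2, the pair most often quoted as a death-to-survival ratio, was 3.35, 3.57 and 3.68 with Ad-RNF128, against 3.94 and 3.97. Pmaip1 over Mcl1 was 0.869, 0.922 and 0.700 with Ad-RNF128, against 1.20 and 1.01. All 5 ratios were lower with Ad-RNF128 without overlap with Ad-GFP replicates 2 and 3, but these pairs leave out Bid and Bbc3. Of all 21 pairs of a death-promoting and a pro-survival member, a comparison added after seeing the data, 16 were lower without overlap, 2 overlapped (Pmaip1 and Bad over Bcl2) and 3 were higher, namely Bid over each pro-survival gene. Bid over Mcl1 was 0.430, 0.436 and 0.428 with Ad-RNF128, against 0.362 and 0.374 in Ad-GFP replicates 2 and 3. Bid over Bcl2l1 was 0.637, 0.687 and 0.677 with Ad-RNF128, against 0.596 and 0.634. The direction of such a ratio thus depended on the pair. A lower ratio without overlap was also true of 39.6% of all other genes tested when set over Bcl2, of 69.8% over Bcl2l1 and of 62.9% over Mcl1. Ad-GFP replicate 1 had a Bad over Bcl2l1 ratio of 0.713 and a Bak1 over Mcl1 ratio of 0.913, each above all other libraries, and a Pmaip1 over Mcl1 ratio of 0.0208, below them. Its ratios over the 2 counts of Bcl2 were 2282 for Bax (95% exact counting interval 631 to 18849) and 33.5 for Bcl2l11 (8.92 to 282).

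**Figure D3:**
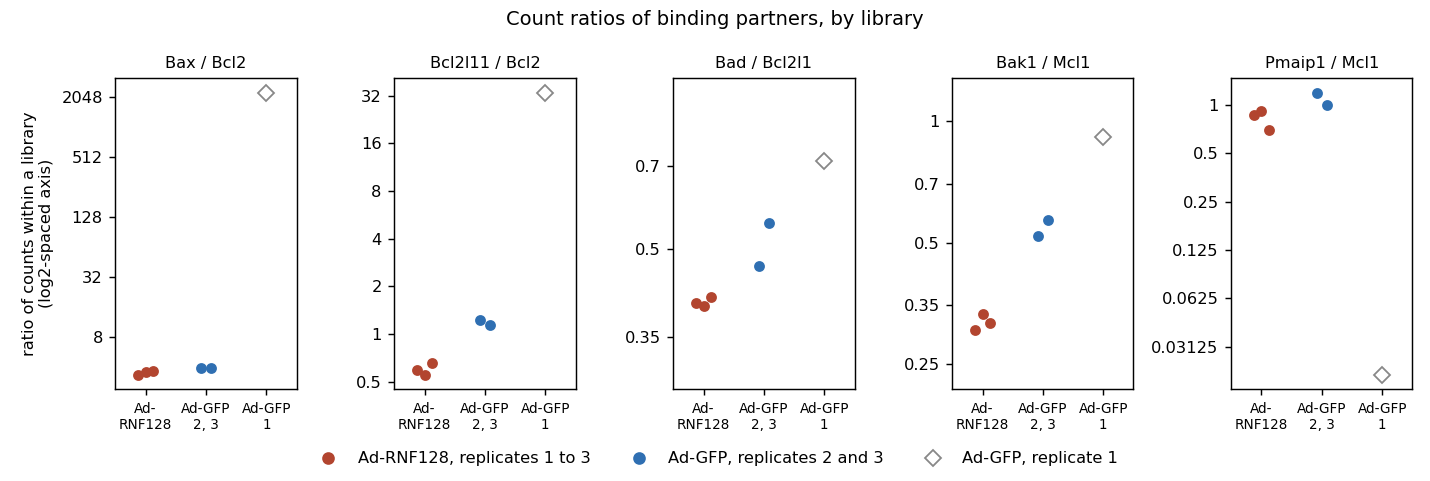
Ratio of the counts of 2 binding partners within each library (vertical axes, log2-spaced, each with its own scale) for the 3 libraries labelled Ad-RNF128, Ad-GFP replicates 2 and 3, and Ad-GFP replicate 1 (open diamond). These 5 ratios, which leave out Bid and Bbc3, are lower with Ad-RNF128 than in Ad-GFP replicates 2 and 3, most for Bcl2l11 over Bcl2 (ratios of Bid, not drawn, are higher), while Ad-GFP replicate 1 lies above the rest in 4 pairs and below in Pmaip1 over Mcl1.

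The wider cell death pathway also moved in both directions against Ad-GFP replicates 2 and 3, and as with the family the counts are to be read against the 56.9% of all genes that passed. Of 8 other multidomain and atypical family genes 4 could be tested, with 2 higher, 1 lower and a median log2 change of 0.21, against 0.01 over all genes. Bok, an effector-like member, was at 65.9, 67.3 and 70.5 CPM with Ad-RNF128, against 29.9 and 29.2 CPM, a log2 change of 1.05 ± 0.07 (SE, edgeR adjusted p = 1.79e-08). Bcl2l2, the pro-survival gene of BCL-W, rose by 0.55 ± 0.07 (SE) on the log2 scale. Bcl2l12 had a log2 change of -0.33 ± 0.10 (SE), a call that ended with library totals alone (adjusted p = 0.135), without Ad-GFP replicate 2 (0.0588) and without Ad-RNF128 replicate 2 (0.0524). Bcl2a1, a pro-survival gene of blood cells, did not exceed 0.138 CPM in any library. Ad-GFP replicate 1 held 305 CPM of Bok, more than any library labelled Ad-RNF128, and the log2 change of Bok over 6 libraries was -2.07 ± 1.32 (SE).

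Of 6 other BH3-only and BH3-like genes 4 were tested, with 1 higher, 1 lower and a median of -0.08. Bnip3, a hypoxia-induced mitophagy receptor, rose to 232, 242 and 204 CPM with Ad-RNF128, against 58.9 and 61.7 CPM. Bmf, which frees BAX and BAK when the cytoskeleton is disturbed, was at 29.0, 29.2 and 31.9 CPM with Ad-RNF128, against 38.4 and 42.0 CPM. Its log2 change of -0.58 ± 0.08 (SE, edgeR adjusted p = 3.39e-05) made it, beside Bcl2l11, the other BH3-only gene of these lists that fell. Downstream of the membrane, 1 of 4 tested apoptosome and caspase genes rose and 2 fell, with a median of -0.19. Apaf1, the scaffold of the apoptosome, was at 41.2, 39.2 and 40.8 CPM with Ad-RNF128, against 72.1 and 74.3 CPM (log2 change -1.01 ± 0.07 (SE), edgeR adjusted p = 1.29e-08). Cycs, the gene of cytochrome c, rose by 0.46 ± 0.08 (SE) on the log2 scale. Casp6, a caspase gene, had a log2 change of -0.49 ± 0.15 (SE). That call ended with library totals alone (adjusted p = 0.081), where Casp9, the gene of the caspase that the apoptosome activates, passed as higher (0.27). It also ended without Ad-GFP replicate 2 (adjusted p = 0.137) and without Ad-RNF128 replicate 2 (0.0562).

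Of 9 tested genes listed as inhibitors of apoptosis and their antagonists 2 rose and 3 fell, with a median of -0.09. That list also held Aifm1 and Endog, which are neither. Birc3, an NF-kB-induced inhibitor, rose to 16.0, 19.5 and 17.3 CPM with Ad-RNF128, against 5.10 and 5.16 CPM (log2 change 1.63 ± 0.13 (SE), edgeR adjusted p = 8.72e-08). Birc6, a very large ubiquitin ligase of this group, fell by 0.85 on the log2 scale and the mitotic inhibitor gene Birc5 fell by 0.42. Xiap, a direct caspase inhibitor, at -0.31, and Aifm1, at 0.18, passed narrowly (edgeR adjusted p of 0.032 and 0.0406) and lost the call with DESeq2 (adjusted p of 0.0871 and 0.0811). Xiap also lost it without Ad-GFP replicate 2 or 3 and without Ad-RNF128 replicate 1 or 3 (adjusted p of 0.0654 to 0.116), and Aifm1 without Ad-GFP replicate 3 and without Ad-RNF128 replicate 1 or 2 (0.0674 to 0.283). In the death receptor arm, which reaches mitochondria through BID, 3 of 7 tested genes rose and 1 fell, with a median of 0.23. The adaptor gene Fadd rose by 0.54, the receptor gene Fas by 0.23 and the adaptor gene Tradd by 0.26 on the log2 scale, while the receptor gene Tnfrsf1a fell by 0.51. The call of Tradd ended with DESeq2 (adjusted p = 0.0744), without Ad-GFP replicate 2 (0.222) and without Ad-RNF128 replicate 3 (0.0606), and the arm had 5 higher genes with library totals alone.

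Of 12 regulators of the members 4 rose and 5 fell, with a median of -0.14. Vdac2, among those that rose, passed narrowly (log2 change 0.16, edgeR adjusted p = 0.0423). Its call ended with DESeq2 (adjusted p = 0.0503), which gave 3 higher and 6 lower. It also ended in edgeR with no low-count filter (adjusted p = 0.0786) and without Ad-RNF128 replicate 2 (0.0843). Beside Ddit3, the transcription factor gene Irf1 rose by 0.82 ± 0.09 (SE) and Mdm2, a ubiquitin ligase gene, by 0.79 ± 0.07 (SE) on the log2 scale. Usp9x, whose product removes ubiquitin from MCL1, was at 165, 157 and 145 CPM with Ad-RNF128, against 309 and 250.1 CPM, and fell by 0.99 on the log2 scale. Huwe1, whose product attaches ubiquitin to MCL1, fell by 0.60, and Foxo3, a known activator of Bcl2l11 transcription, by 0.65. With all 6 libraries 0 genes of these 6 lists passed in edgeR, and DESeq2 called Birc3 (log2 change 1.71, adjusted p = 0.00093). Of the 26 list genes that passed without Ad-GFP replicate 1, that replicate was below the other 5 libraries in 19, above them in 4 and within their range in 3. Over all 12863 genes the shares were 66.2% below and 24.5% above. The log2 change over 6 libraries had the opposite sign for 5 of the 26 (Bok, Tradd, Xiap, Fbxw7 and Vdac2). The share of all genes with such a change of sign was not taken. Ad-GFP replicate 1 held Bnip3 at 2.14 CPM, Mdm2 at 6.48 CPM, Cycs at 5.32 CPM and Fas at 0.795 CPM. It also held Apaf1 at 0.55 CPM, Usp9x at 1.77 CPM and Ddit3 at 143 CPM, the last level with the 3 libraries labelled Ad-RNF128.

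**Figure D4:**
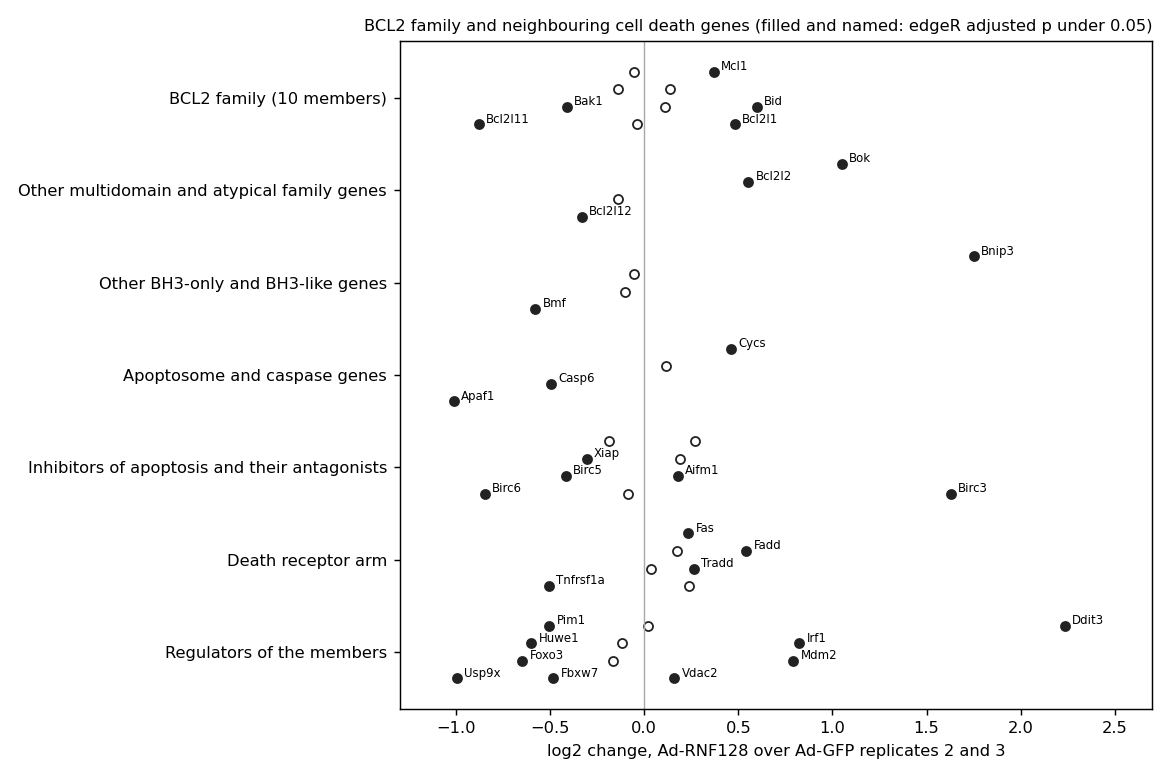
edgeR log2 change, Ad-RNF128 over Ad-GFP replicates 2 and 3 (horizontal axis), of the 10 BCL2 family genes and of 6 lists of related genes (rows); each point is a gene, and filled, named points passed at an adjusted p under 0.05. Every row holds genes on both sides of 0, from -1.01 for Apaf1 to 2.24 for Ddit3.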

How the data were processed

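Each deposited table gives raw counts per gene for 1 library. The deposited table of Ad-GFP replicate 1 was taken as estimated counts, since 1 value (344.5) was not whole, and was rounded. Per the submitters' processing notes, the tools were HISAT2 and HTSeq 0.13.5, with mRatBN7.2 as the rat build. The labels' protocols name polyA RNA. A gene was read from the row with the highest mean count of its name, and CPM is its count over the library total, times 1000000.

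edgeR 4.0.16 in R 4.3.3 was fitted to the whole table (filterByExpr, TMM, quasi-likelihood test, Benjamini-Hochberg, threshold 0.05), once with all 6 libraries and once without Ad-GFP replicate 1. All 10 members passed the low-count filter in both fits. Some genes of the pathway lists are not reported here. The alternatives include DESeq2 1.42.0 and limma 3.58.1. The members, lists and the second fit were chosen with earlier results of these data known. All members are named, and of each other list at most 3 rising and 3 falling genes with the largest log2 changes, beside a few named for a low level or a call that changed, which were chosen after their values were seen. Replicate numbers come from the titles. The numbers were not taken as pairs. Same-numbered libraries had correlations of their deviations from the group means of -0.27, 0.05 and -0.24. These could not show or exclude pairing, because the Ad-GFP mean includes replicate 1, which stood apart. Ad-RNF128 replicate 1, for instance, had 0.28 and 0.26 with Ad-GFP replicates 2 and 3. Counting intervals are exact, at 95%, and cover counting error only. Upstream sequences are RefSeq's (GRCr8).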

Additional observations from a re-analysis of the deposited data

How the results depend on the processing

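Without Ad-GFP replicate 1, alternatives that kept all 5 other libraries gave 3 members higher and 2 lower, with 2 exceptions: library totals alone gave 5 higher, and a log2 change of at least 1 left 0 higher and 0 lower (1601 of all genes, against 7501). Bax, Bbc3 and Pmaip1, none of them called, turned to 0.10, 0.021 and 0.12 with library totals alone. Leaving out 1 library labelled Ad-RNF128 gave 3 members higher and 2 lower, with 27.3% to 28.5% of all genes higher and 24.6% to 26.2% lower. The member counts were thus close to that background. Leaving out any 1 of the 5 libraries gave log2 changes of -0.12 to 0.014 for Bax, -0.31 to 0.071 for Bbc3 and -0.13 to 0.068 for Pmaip1. A replicate block over the 5 libraries kept 3 higher and 2 lower, with 7795 genes called in all. Over 6 libraries it called 0 genes.

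Over 6 libraries the all-gene count was 8 with library totals alone, 386 with DESeq2 and 14 with limma-voom. Leaving out 1 library gave 0 to 7501 genes, 0 to 3 members higher and 0 to 2 lower, each upper value without Ad-GFP replicate 1. Log2 changes reversed to -0.0036 (Mcl1) and -0.19 (Bid) with median-of-ratios size factors, and to -0.0025 (Mcl1) and -0.19 (Bid) with DESeq2. Leaving out 1 library gave ranges of -1.65 to 0.48 for Bcl2l1, -0.039 to 0.60 for Bid, -0.038 to 1.02 for Pmaip1 and -2.41 to 0.14 for Bad, and -0.41 to 2.51 for the log2 ratio of Pmaip1 to Mcl1. The cause was not tested. With Bcl2 at 2 counts in Ad-GFP replicate 1, depth limits its ratios there.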
